A study of Mus musculus with 8 samples.

Results

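The cells described here are 452 of 7618 single mouse cells whose transcripts included several genes of blood vessel lining: 335 of 4395 cells of a wild-type (WT) library and 117 of 3223 cells of a Tet triple knockout (TKO) library. They were selected on measured values. A cell entered when at most 15% of its unique molecular identifiers (UMIs, each standing for 1 captured transcript) came from mitochondrial genes, when it held at least 1 UMI in 3 or more of the 9 genes Cdh5, Cldn5, Plvap, Icam2, Esam, Ramp2, Ctla2a, Egfl7 and Kdr, and when globin genes gave under 1% of its UMIs. Values of those 9 genes are therefore given as a description only.

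Both libraries started from E14-NKX2-5-EmGFP, a line of mouse embryonic stem cells that was grown on mouse embryonic fibroblast feeders with leukemia inhibitory factor. The cells were differentiated without that factor, for 2 days as hanging drops and 3 more days as embryoid bodies in suspension, so that both groups were at day 5. WT cells carried the unaltered Tet genes and TKO cells carried the Tet triple knockout. Neither was treated. TET enzymes oxidise 5-methylcytosine, the methyl mark on DNA, to 5-hydroxymethylcytosine. Each genotype was 1 library of pooled embryoid bodies, the labels do not say how many clones stood behind it, and nothing separates a difference between genotypes from a difference between the 2 cultures. No p-value can be given for that reason, and every interval below is an exact 95% interval that covers counting error only. The study's other 6 samples, which measured 5-hydroxymethylcytosine along the genome, were not analysed here.

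Endothelial cells form the inner lining of vessels. In the embryo they arise from mesoderm, where ETS-family transcription factors, with Etv2 among the earliest, act beside Tal1 and Lmo2 to start a shared vascular and blood programme. Vascular endothelial growth factor (VEGF) signals through Kdr, and Tie, Notch and bone morphogenetic protein (BMP) receptors then shape the vessels. VE-cadherin (Cdh5), claudin 5 (Cldn5) and PECAM-1 (Pecam1) join neighbouring cells at their contacts.

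The promoters of 3 genes are shown because these genes are described below and their promoters hold the letters of an ETS site. Egfl7, one of the selecting genes, encodes a secreted vascular protein. Emcn encodes endomucin, a surface sialomucin of endothelium, and Rasip1 an adaptor protein needed for vessel tubes. Each sequence is the 250 bases before a start of the gene in RefSeq's GRCm38.p6 annotation. It is read 5′ to 3′ on the gene's strand, with every CAGGAAG or its reverse complement in capitals. Egfl7 has 3 such windows, and the first that held a match is shown. Emcn and Rasip1 have 1 window each. The coordinates are chr2:26580833-26581082 (plus strand) for Egfl7, chr3:137340828-137341077 (plus strand) for Emcn and chr7:45627287-45627536 (plus strand) for Rasip1.
Egfl7: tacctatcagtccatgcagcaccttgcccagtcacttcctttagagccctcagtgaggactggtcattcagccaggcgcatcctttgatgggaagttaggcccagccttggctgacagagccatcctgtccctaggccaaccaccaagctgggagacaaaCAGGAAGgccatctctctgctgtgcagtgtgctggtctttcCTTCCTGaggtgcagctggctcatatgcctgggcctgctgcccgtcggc
Emcn: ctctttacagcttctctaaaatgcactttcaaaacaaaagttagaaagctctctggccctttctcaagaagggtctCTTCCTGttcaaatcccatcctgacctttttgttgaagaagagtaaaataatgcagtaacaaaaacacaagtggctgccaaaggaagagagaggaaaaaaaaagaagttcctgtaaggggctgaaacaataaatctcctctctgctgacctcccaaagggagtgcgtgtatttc
Rasip1: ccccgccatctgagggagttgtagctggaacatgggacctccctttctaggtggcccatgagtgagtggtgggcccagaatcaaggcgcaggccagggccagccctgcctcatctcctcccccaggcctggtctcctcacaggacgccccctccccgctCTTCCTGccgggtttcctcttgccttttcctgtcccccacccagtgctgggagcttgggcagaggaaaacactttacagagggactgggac
The Egfl7 matches lie 90 and 49 bases before the start, the Emcn match 174 and the Rasip1 match 91. These letters, on either strand, occur in 3554 of all 32851 promoter windows of this length (10.8%) and in at least 1 window of 3282 of 27025 genes (12.1%). They occur in 2 of the 4 selecting genes with a window, in 3 of 16 endothelial transcription factor genes and in 5 of 11 endothelial junction and surface genes. A match is a description of the letters and no evidence of a bound site.

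The label was first checked against the number of selecting genes that a cell held. Among selected cells those with 3 markers were the most numerous in both libraries, 131 in WT and 66 in TKO. The number dropped to 23 and 8 at 4 markers. From 5 markers upward the WT library held 181 cells, with 40 at 8 markers and 51 at 9, whereas the TKO library held 43, with 3 at each of those numbers. Of the cells with exactly 3 markers, 55.7% in WT and 81.8% in TKO held the same combination of Ramp2, Egfl7 and Kdr, genes that cells outside endothelium also transcribe. Among cells with 3 or 4 markers, 100 of 154 in WT and 55 of 74 in TKO had no UMI in any of Cdh5, Cldn5, Plvap, Icam2 and Esam.

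**Figure D1:**
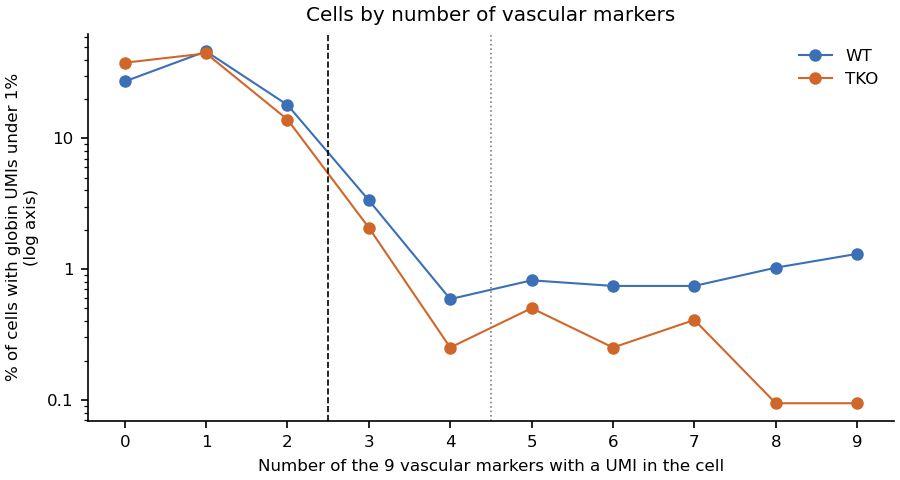
Percent of each library's cells with under 1% globin UMIs (y axis, log scale) by the number of the 9 selecting genes with a UMI (x axis), with 1 line per library; the dashed line marks the selection at 3 markers and the dotted line 5 markers. WT shares rise again to 1.31% (51 cells) at 9 markers, and TKO shares end at 0.094% (3 cells).

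Genes that took no part in the selection separated the cells more above 3 markers than at the selection's own limit. Just outside the limit, at 2 markers, Rasip1 had a UMI in 0.997% of 702 WT cells and 1.58% of 443 TKO cells. Just inside it, at 3 markers, the shares were 9.16% and 13.6%. At 4 markers, with 23 WT and 8 TKO cells, they were 56.5% and 50%, and at 5 or 6 markers 75.4% and 79.2%. The median WT cell had 8799.5 UMIs at 2 markers, 11364 at 3 and 6791.5 at 5, and the median TKO cell 11510, 11220 and 11298, so WT depth and the Rasip1 share both climbed from 2 to 3 markers. Fli1, an ETS factor of the endothelial programme, was found in 13.7% of WT and 10.6% of TKO cells with 3 markers. Its shares were 34.8% and 37.5% at 4 markers, and 47.5% and 54.2% at 5 or 6. Hand1, a transcription factor of lateral and extraembryonic mesoderm, moved the other way in WT. It went from 85.5% of cells with 3 markers to 30.4% at 4 and 27.9% at 5 or 6. Selected cells with 3 markers thus mostly lacked Rasip1 and Fli1, and the few with 4 lay nearer to those with 5 or 6. Hand1 was present in most such WT cells but in 27.3% of TKO cells with 3 markers. Other genes of the programme were divided in the latter. Etv2, Lmo2 and Elk3 were found in 36.4%, 34.85% and 33.3% of TKO cells with 3 markers, but Erg, Tie1 and Pecam1 in 7.58%, 3.03% and 7.58%. The selection is described below as a whole and for the cells with 5 or more markers. That division was made after the values were seen.

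**Figure D2:**
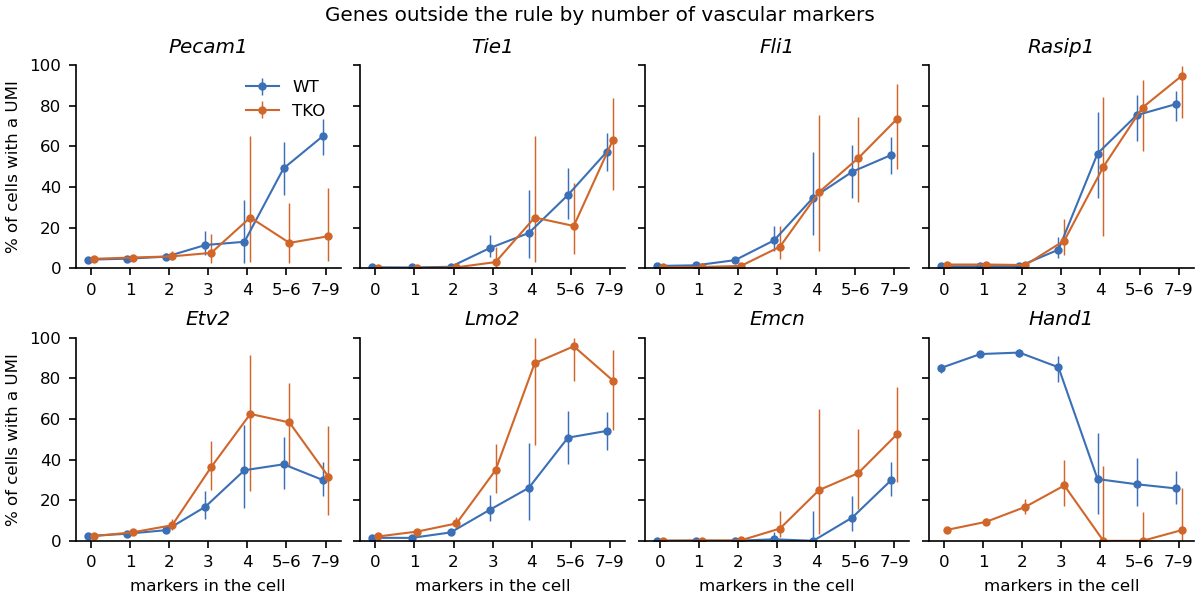
Percent of cells with at least 1 UMI (y axis) for 8 genes outside the selection, by number of selecting genes (x axis) in each library; bars are exact 95% intervals. Rasip1 and Fli1 climb between 3 markers and 5 or 6, and Hand1 declines in WT.

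The remaining cells' lineage genes showed the same division. At least 3 of 12 mesenchymal genes (collagens, Postn, Acta2, Hand1 and others) were present in 72.7% of WT cells with 3 or 4 markers, near the 78.9% of cells outside the selection, and in 13.8% of those with 5 or more. In TKO the shares were 18.9%, 6.27% and 0 of 43. A floor of 3 counts over these 43 cells is 6.98%, and the exact interval of 0 of 43 reaches 8.22%. Summed, these 12 genes stood at 400 CPM (counts per 1000000 UMIs of the cells) in WT cells with 5 or more markers against 2421 CPM at 3 or 4, and at 48.7 against 261 CPM in TKO. Megakaryocyte and myeloid genes, at least 3 of 12, occurred in 5 of 181 WT cells with 5 or more markers and 13 of 154 with 3 or 4, against 0.271% of the other WT cells and no TKO cell. Epithelial and endodermal genes, at least 3 of 12, occurred in 4 of 43 TKO cells with 5 or more markers and 10 of 74 with 3 or 4, against 41% of the other TKO cells. The part of such mixed cells in the results, doublets included, was not tested.

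The selected cells made up 7.63% of WT cells within the mitochondrial limit (335 of 4392, interval 6.86 to 8.45) and 3.66% of TKO cells (117 of 3197, interval 3.04 to 4.37). Cells with 5 or more markers made up 4.12% in WT (181, interval 3.55 to 4.75) and 1.35% in TKO (43, interval 0.975 to 1.81). The libraries differed in depth: the median cell with 5 or more markers had 7167 UMIs in WT and 12107 in TKO, and outside the selection the medians were 7810 and 9590.5. After every cell was thinned to 4000 UMIs, leaving out 373 WT and 190 TKO cells below that number, 4.78% of WT and 2.16% of TKO cells were selected, and 3.19% and 0.665% held 5 or more markers. The lower TKO share was present at equal depth. Library totals were 37537946 and 33602635 UMIs over 27998 gene rows, the mitochondrial limit removed 3 WT and 26 TKO cells, and the libraries shared 21 cell barcodes.

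Among the 9 selecting genes, the balance differed between the libraries in cells with 5 or more markers. Icam2, an adhesion molecule of endothelium and platelets, stood at 202 CPM in WT and 25.2 in TKO, and Plvap, a protein of endothelial fenestrae, at 400 and 72.2. Cldn5 stood at 367 and 90.7 CPM, Ctla2a at 1297 and 353. Cdh5 (248 and 171), Esam (190 and 108) and Ramp2 (924 and 526) were closer together. Kdr, the main VEGF receptor, stood at 359 CPM in WT and 678 in TKO, and Egfl7 at 676 and 1239, with every TKO cell holding both. Since each cell had to hold several of these genes, the values describe which ones carried the selection in each library. Ctla2a has a near-identical neighbour, Ctla2b, and the authors' counting could have split reads between the pair.

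In both genotypes, vascular genes were among the transcripts that set the cells with 5 or more markers apart from the other cells of their own library. In WT, 849 of 11420 genes with at least 50 UMIs in these cells and the other cells together (7.43%) were at least 2-fold higher there, and in TKO 1199 of 11443 (10.5%), over 181 and 43 such cells. For all selected cells, the figures were 550 of 11507 genes in WT (4.78%) and 466 of 11493 in TKO (4.05%). Of 24 endothelial transcription factors, 21 reached 50 UMIs in WT and 20 of them were 2-fold higher in the cells with 5 or more markers, with a median ratio of 10.4. In TKO it was 13 of 20, with a median ratio of 3.99. Of 24 junction and surface genes, 14 of 18 were 2-fold higher in WT (median 18.9) and 8 of 12 in TKO (median 2.85). Genes correlated with the selecting genes were bound to be higher in such cells, so these counts describe the cells and test nothing.

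Individual genes showed how sharply the programme was set off. The ratio to other cells of the same library was 582 for Cd93, a C-type lectin-like receptor of endothelium, 418 for Mmrn2, an endothelial matrix protein, and 392 for Emcn in WT. In TKO the ratio was 496 for Emcn, 173 for Fli1, 254.7 for Erg, another ETS factor of endothelium, and 241 for Rhoj, a small GTPase of vascular cells. Tie1, an orphan receptor of the Tie family, was 118-fold higher than in other cells in WT and 661-fold higher in TKO. TKO cells with 0, 1 and 2 markers and under 1% globin held 0, 1 and 2 Tie1 UMIs. The same groups of WT cells held 5, 7 and 5. The TKO ratios of Tie1, Emcn and Erg thus rest on a few UMIs in the other cells and do not compare levels between libraries. Among the vascular cells themselves Tie1 was lower in TKO than in WT, as given below. Tek, the angiopoietin receptor, was 2.57-fold higher in WT and 214-fold higher in TKO, with 28.5 CPM in WT cells outside the selection and 0.188 CPM in TKO ones. Hapln1, a hyaluronan link protein of endocardium and other tissues, differed in a similar way, with ratios of 17.8 in WT and 111 in TKO.

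The libraries were then compared within the selected cells, with a 2-fold difference in CPM and at least 50 UMIs in both libraries together as the limit. In all selected cells 236 of 7532 genes were higher in TKO (3.13%) and 467 higher in WT (6.2%). In cells with 5 or more markers 147 of 4718 were higher in TKO (3.12%) and 240 higher in WT (5.09%). The median log2 ratio of TKO to WT over all these genes was 0.06 in all selected cells and 0.05 in those with 5 or more markers. All ratios that follow are TKO over WT in the cells with 5 or more markers unless said otherwise.

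Of the transcription factors of the endothelial programme, Fli1, Erg and Elk3, ETS factors, had ratios near 1: Fli1 had 165 UMIs in 181 WT cells (105 CPM) and 71 UMIs in 43 TKO cells (119 CPM), a ratio of 1.13 (0.845 to 1.5). Erg stood at 56.2 and 63.8 CPM, with a ratio of 1.14 (0.755 to 1.68), and Elk3, an ETS repressor, at 169 and 168 CPM, with a ratio of 0.992 (0.78 to 1.25). Hhex, a homeobox factor of early endothelium and blood, stood at 137 and 143 CPM. These intervals bound a difference in this pair of libraries and do not show that the levels were alike.

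Lmo2 and Sox7 were the factors 2-fold higher in TKO. Lmo2, the LIM-domain partner of Tal1, had 204 UMIs in WT (130 CPM) and 234 in TKO (393 CPM), a ratio of 3.02 (2.49 to 3.66). At 4000 UMIs per cell it was found in 37% of WT cells (29.6 to 45) and 64.3% of TKO cells (48 to 78.5), against 1.52% and 0.559% of epithelial cells of the same libraries, which should lack it and serve here as a measure of free RNA. Without thinning, the shares were 53% and 88.4% against 1.95% and 1.97%, and the epithelial cells numbered 205 in WT and 1115 in TKO. Sox7, a SOXF-family factor, stood at 31.3 and 68.8 CPM, a ratio of 2.2 (1.42 to 3.4), although its shares of cells at equal depth, 12.3% and 26.2% (21% and 58.1% without thinning), had overlapping intervals. Tal1 (42.1 and 82.3 CPM) and Ets1 (68.3 and 123 CPM) stayed below the 2-fold limit, with ratios of 1.95 (1.32 to 2.87) and 1.79 (1.31 to 2.44).

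Etv2 depended on which cells were counted. Over all selected cells its ratio was 3.13, and over those with 5 or more markers it was 1.73 (1.25 to 2.37), with 65.1 CPM in WT and 113 in TKO. Between 5 or 6 markers and 7 to 9 markers the share of TKO cells with an Etv2 UMI was 58.3% and 31.6%, and of WT cells 37.7% and 30%. At 3 markers Etv2 stood at 21.2 CPM in WT and 135.5 in TKO. At 4 markers it stood at 84.1 and 351.8 CPM, over 23 and 8 cells.

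Lyl1 and Sox17 were the factors 2-fold higher in WT. Lyl1, a relative of Tal1, had 214 UMIs in WT (137 CPM) and 35 in TKO (58.8 CPM), a ratio of 0.43 (0.292 to 0.617). Sox17, the SOXF factor of arteries and of endoderm, stood at 71.5 and 35.3 CPM, a ratio of 0.493 (0.294 to 0.791), and of 0.639 (0.296 to 1.3) in cells with 5 to 7 markers. Klf2, the flow-responsive factor, stood at 277 and 170 CPM, a ratio of 0.612 (0.488 to 0.762) that did not pass the limit. Its share of cells at equal depth lay the other way, 41.4% (33.7 to 49.4) in WT and 50% (34.2 to 65.8) in TKO, with overlapping intervals (54.1% and 65.1% without thinning). Of the 24 factors, 20 reached 50 UMIs, with Sox7 and Lmo2 2-fold higher in TKO, Sox17 and Lyl1 2-fold higher in WT, and a median log2 ratio of 0.07. Over all selected cells, 4 of 21 were higher in TKO (Etv2, Sox7, Lmo2 and Foxc1) and Lyl1 alone was higher in WT. Foxc1, a forkhead factor of mesoderm, had only 8 and 20 UMIs in the cells with 5 or more markers.

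**Figure D3:**
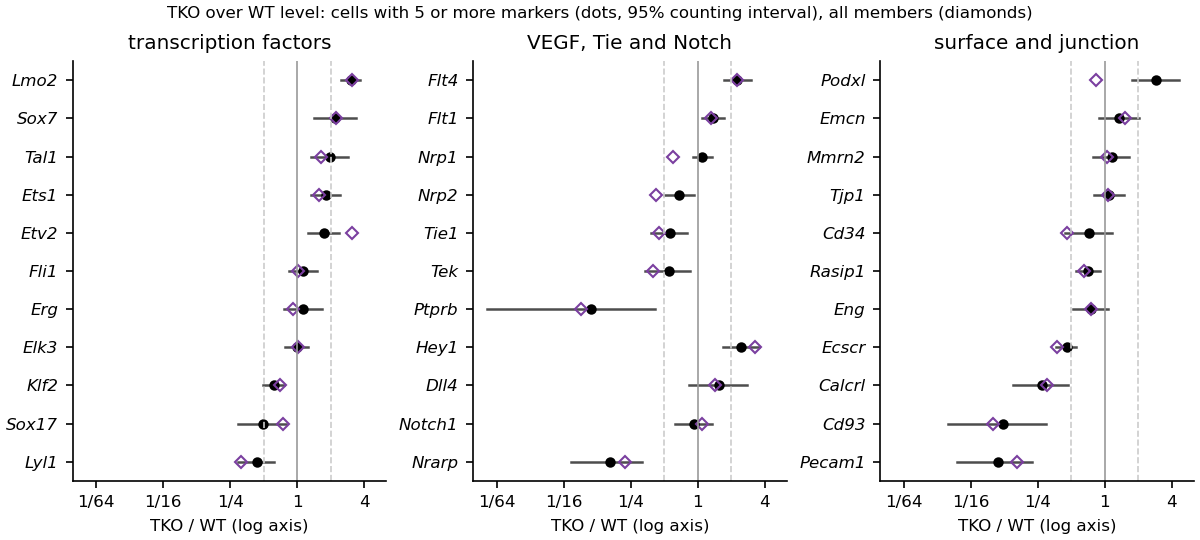
TKO over WT ratio of summed CPM (x axis, log scale) for the named genes (y axis); dots are cells with 5 or more markers with their exact 95% interval, diamonds all selected cells, and dashed lines 2-fold. Lmo2 lies at 3.02 and Pecam1 at 0.11 among cells with 5 or more markers.

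Among the VEGF receptors other than Kdr, Flt4 was 2-fold higher in TKO. Flt4, the receptor for VEGF-C, had 111 UMIs in WT (70.9 CPM) and 96 in TKO (161 CPM), a ratio of 2.28 (1.71 to 3.02). It was found at equal depth in 23.5% of WT (17.2 to 30.8) and 50% of TKO cells (34.2 to 65.8), against 0 of 198 and 0.373% of epithelial cells. Without thinning, the shares were 36.5% and 76.7%. Flt1, a decoy receptor for VEGF-A, stood at 147 and 203 CPM, a ratio of 1.38 (1.1 to 1.73). The co-receptors Nrp1 (238 and 264 CPM) and Nrp2 (130 and 89 CPM) had ratios of 1.11 (0.913 to 1.34) and 0.683 (0.495 to 0.928). Flt4 alone of 6 genes of the list with 50 UMIs passed the 2-fold limit.

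Of 3 genes of the Tie system with enough UMIs, Ptprb alone was 2-fold apart in cells with 5 or more markers. Tie1 stood at 110 CPM in WT and 62.1 in TKO, a ratio of 0.562 (0.383 to 0.806), and Tek at 73.4 and 40.3 CPM, a ratio of 0.549 (0.338 to 0.858). Ptprb, the vascular phosphatase VE-PTP that acts on Tie receptors, had 48 UMIs in WT and 2 in TKO, a ratio of 0.11 (0.0129 to 0.418). In cells with 5 to 7 markers the ratios of Tie1 and Tek were 0.647 (0.378 to 1.07) and 0.559 (0.287 to 1.03). Over all selected cells all 3 were 2-fold higher in WT.

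In the Notch pathway the targets Hey1 and Nrarp were 2-fold apart in opposite directions. Notch1 stood at 72.8 CPM in WT and 67.2 in TKO, a ratio of 0.923 (0.627 to 1.33). Its endothelial ligand Dll4 had 34 and 20 UMIs, a ratio of 1.55 (0.844 to 2.77). Hey1, a Notch target and repressor, stood at 39.6 and 97.4 CPM, a ratio of 2.46 (1.69 to 3.58). Nrarp, a Notch target that restrains the pathway, went the other way, with 146 UMIs in WT (93.2 CPM) and 9 in TKO (15.1 CPM), a ratio of 0.162 (0.0727 to 0.316). Hes1, a further target, stood at 95.1 and 133 CPM. At equal depth Nrarp was found in 30.2% of WT cells and 3 of 42 TKO cells (7.14%), the latter near the 5.5% of TKO epithelial cells. Hey1 was found in 11.1% and 28.6%, against 2.53% and 8.48% of epithelial cells. Without thinning, the shares in vascular cells were 45.9% and 18.6% for Nrarp and 22.7% and 55.8% for Hey1. Outside the selection, the ratio was 7.58 for Hey1 and 3.06 for Nrarp, so Nrarp was higher in TKO there and lower in TKO among the vascular cells.

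The BMP target Id1 was 2-fold higher in TKO, in the vascular cells and outside them. Id1, an inhibitor of DNA-binding proteins induced by BMP, stood at 266 CPM in WT and 727 in TKO, a ratio of 2.74 (2.39 to 3.14). In cells outside the selection its ratio was 3.22. Id3 stood at 541 and 981 CPM, with ratios of 1.81 (1.63 to 2.02) and, outside, 2.56. The co-receptor Eng, endoglin, stood at 93.9 and 70.5 CPM, a ratio of 0.751 (0.52 to 1.06). The ligand Bmp4 had 30 UMIs in WT and 1 in TKO, and Bmp2 12 and 19. Of 11 genes of the list with 50 UMIs, Bmpr1a, Smad5 and Id1 were 2-fold higher in TKO and none was 2-fold higher in WT. Over all selected cells the list was even, with Bmp2, Id1 and Id3 higher in TKO and Bmp4, Acvrl1 and Smad6, itself a BMP target, higher in WT, of 14.

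Of 7 peptide and lipid receptor genes of the vessel wall and their ligands with 50 UMIs, Calcrl, Gpr182 and S1pr1 were 2-fold higher in WT and none in TKO. Calcrl, the adrenomedullin receptor that works with Ramp2, had 144 UMIs in WT (91.9 CPM) and 15 in TKO (25.2 CPM), a ratio of 0.274 (0.149 to 0.467). Gpr182, a scavenging chemokine receptor, stood at 40.9 and 11.7 CPM, a ratio of 0.288 (0.111 to 0.628). S1pr1, the sphingosine-1-phosphate receptor, stood at 31.3 and 8.39 CPM, a ratio of 0.268 (0.0834 to 0.67). The apelin receptor Aplnr was less far apart, at 114 and 85.6 CPM, a ratio of 0.754 (0.541 to 1.03). In cells with 5 to 7 markers Calcrl kept its difference, at 0.309 (0.146 to 0.599), whereas Gpr182 and S1pr1, with 10 UMIs in WT and 4 in TKO each, stood at 0.596 (0.136 to 2.07) and were no longer 2-fold apart.

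Pecam1 showed one of the widest gaps of the adhesion genes. It had 191 UMIs in WT (122 CPM, in 59.7% of cells) and 8 in TKO (13.4 CPM, in 14% of cells), a ratio of 0.11 (0.0469 to 0.222). The share of epithelial cells with a Pecam1 UMI was 3.9% in WT and 5.56% in TKO. At equal depth the shares were 38.9% (31.3 to 46.9) in WT and 2 of 42, or 4.76% (0.582 to 16.2), in TKO, against 2.02% and 1.49% of epithelial cells. At equal depth the TKO share was thus not detectably above the share in epithelial cells, but 2 of 42 cells cannot tell a low level from none. Without thinning, Cdh5 and Tie1 each had a UMI in 0.0897% of TKO epithelial cells, far below the Pecam1 share. Whether epithelial cells transcribe Pecam1 themselves was not tested. Cells outside the selection had a ratio of 0.743.

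The rest of the junction and surface genes were divided. Cd93 had 107 UMIs in WT and 5 in TKO, a ratio of 0.123 (0.0391 to 0.296). Clec14a, another C-type lectin-like surface protein, had 37 UMIs in WT and none in TKO. Its level was thus at least 4.69-fold lower in TKO against a floor of 3 counts over the TKO cells. However, 31 of the WT UMIs lay in cells with 8 or 9 markers, of which TKO had 6. In cells with 5 to 7 markers it had 6 UMIs in WT and none in TKO, a bound of 0.745 that does not reach 2-fold. Ecscr, an endothelial membrane protein, stood at 410 and 186 CPM, a ratio of 0.455 (0.368 to 0.557). By contrast Emcn stood at 46 and 62.1 CPM, a ratio of 1.35 (0.884 to 2.04), Mmrn2 at 61.3 and 70.5 CPM, a ratio of 1.15 (0.781 to 1.67), and Rasip1 at 204 and 146 CPM, a ratio of 0.715 (0.558 to 0.909). Podxl, the sialomucin podocalyxin, stood at 21.7 and 62.1 CPM, a ratio of 2.86 (1.75 to 4.7), but its ratio over all selected cells was 0.841. Of 16 genes with 50 UMIs, 4 were 2-fold higher in WT (Pecam1, Cd93, Ecscr and Jam3) and Podxl in TKO, with a median log2 ratio of -0.44.

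**Figure D4:**
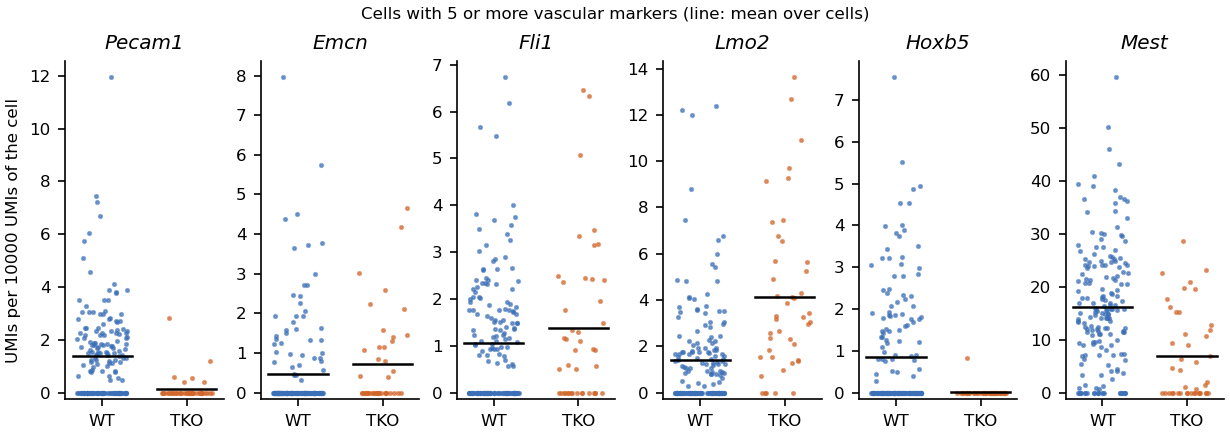
UMIs per 10000 UMIs of the cell (y axis) for 6 genes in each of the 181 WT and 43 TKO cells with 5 or more markers (x axis, library); each dot is 1 cell and the line is the mean. The median TKO cell has 3.28 for Lmo2 and 0 for Pecam1, and the median WT cell 0.48 and 1.15.

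Single cells showed these differences as shifts of overlapping distributions. The median WT cell held 1.15 Pecam1 UMIs per 10000 and the highest 11.9, against 0 and 2.83 in TKO. For Lmo2 the median was 0.48 in WT and 3.28 in TKO, with similar highest cells of 12.4 and 13.6. Fli1 medians were 0.686 and 0.907.

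The TKO cells with 5 or more markers held fewer markers on the whole, so cells with 5 to 7 markers, 90 in WT and 37 in TKO, were compared as well. In the smaller set Gpr182, S1pr1, Sox17, Stab1, Ecscr and Sparc were no longer 2-fold apart, with ratios of 0.596, 0.596, 0.639, 0.692, 0.642 and 0.581. Among these cells the Pecam1 ratio was 0.105, that of Lmo2 2.25, Flt4 2.27, Hey1 4.47, Nrarp 0.221 and Calcrl 0.309. Emcn, whose ratio was 1.35 over 5 or more markers, stood at 3.18 (1.67 to 6.32) at 5 to 7. The selecting genes Icam2, Plvap and Ctla2a had ratios of 0.2, 0.25 and 0.28 there, and Cdh5, Esam and Ramp2 1.12, 0.86 and 0.71. Egfl7 and Kdr stood at 2.15 and 2.42. Cldn5, 2-fold higher in WT over 5 or more markers, stood at 0.644 (0.412 to 0.988) and was no longer 2-fold apart. At 5 to 7 markers Notch1 and Aplnr stood at 1.23 and 1.03, against 0.923 and 0.754 over 5 or more, and Rasip1 at 0.869 and Mmrn2 at 1.85. With 8 or 9 markers the TKO library held 6 cells, with 5 Emcn UMIs and 10 Fli1 UMIs among them, too few to compare.

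Of 9 basement membrane and matrix genes with 50 UMIs, 1 was 2-fold higher in WT and none in TKO. Sparc, a collagen-binding matrix protein, stood at 863 and 418 CPM, a ratio of 0.484 (0.421 to 0.555), and of 0.581 (0.487 to 0.691) in cells with 5 to 7 markers. Fn1, fibronectin, stood at 384 and 213 CPM, a ratio of 0.556 (0.455 to 0.674). In cells with 5 to 7 markers the Fn1 ratio passed the 2-fold limit, at 0.448 (0.342 to 0.581). In all selected cells, with their mesenchymal-like members, the ratios of Sparc and Fn1 were 0.298 and 0.309.

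Genes of arterial and venous identity did not divide by vessel type. Of 8 arterial genes with 50 UMIs, Gja4, connexin 37, stood at 61.9 and 18.5 CPM, a ratio of 0.298 (0.144 to 0.558), and Sox17 was also higher in WT, whereas Hey1 was higher in TKO. Gja5, connexin 40, had 29 UMIs in WT and none in TKO, at least 3.68-fold lower in TKO. Of the WT UMIs, 24 lay in cells with 8 or 9 markers. In cells with 5 to 7 markers it had 5 and none, a bound of 0.894 that does not reach 2-fold. Efnb2, the arterial ephrin, had 46 and 22 UMIs, a ratio of 1.26 (0.721 to 2.13). Of 6 venous genes, Flt4 was the 2-fold difference, and Nr2f2, the venous nuclear receptor, had 76 and 23 UMIs, a ratio of 0.796 (0.476 to 1.28). Hapln1 stood at 242 and 94 CPM, a ratio of 0.389 (0.288 to 0.516).

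Of 6 genes of the endothelial-to-blood transition with 50 UMIs, Itga2b, Lyl1 and Cbfa2t3 were 2-fold higher in WT and Lmo2 in TKO. The list's summed level was 479 CPM in WT and 606 in TKO, but Lmo2 alone gave most of the TKO sum. The median log2 ratio of the 6 genes was -0.73. Of all 18 genes of the list, 3 had no UMI in WT and 10 had none in TKO. Itga2b, the integrin CD41 of early blood and megakaryocytes, had 51 UMIs in WT and 5 in TKO, a ratio of 0.258 (0.0803 to 0.642). Runx1, the factor that drives blood emergence, had 13 UMIs in WT and none in TKO, which is at least 1.65-fold lower. Spi1, a myeloid factor, had 12 and 1, and both are under the 50 UMIs asked for. Summed, 12 megakaryocyte and myeloid genes, Itga2b among them, stood at 75.3 CPM in these WT cells and 13.4 in TKO. Itga2b itself gave 51 of their 118 UMIs in WT and 5 of 8 in TKO. The part of blood-like cells in the Itga2b difference was not tested. Of 3 sinusoidal, lymphatic and yolk sac genes with 50 UMIs, Lyve1 and Stab1 were 2-fold higher in WT. Lyve1, the hyaluronan receptor of lymphatic, sinusoidal and yolk sac endothelium, had 116 UMIs in WT, in 24.3% of cells, and 1 in TKO, a ratio of 0.0227 (0.000569 to 0.129). Stab1, a scavenger receptor of sinusoids, had 122 and 17 UMIs, a ratio of 0.366 (0.207 to 0.611), and of 0.692 (0.329 to 1.38) in cells with 5 to 7 markers. Procr, the protein C receptor, had 116 UMIs in WT and 1 in TKO.

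Hox genes, which give cells their position along the body axis, were lower in the TKO vascular cells. Hoxb5 had 109 UMIs in WT, in 39.2% of cells, and 1 in TKO, a ratio of 0.0241 (0.000605 to 0.137). Hoxb8 had 95 and 2 UMIs, a ratio of 0.0554 (0.00661 to 0.206), and Hoxb6 50 and 0, at least 6.34-fold lower in TKO. Hoxb4 had 61 and 6 UMIs, a ratio of 0.259 (0.0914 to 0.596), and Hoxb2 95 and 18, a ratio of 0.498 (0.283 to 0.831). These were the 5 of 39 Hox genes with 50 UMIs, and their median log2 ratio was -2.66. In cells outside the selection the ratios of Hoxb5 and Hoxb8 were both 0.0329, so the difference was not confined to vascular cells. Within WT, Hoxb5 was 4.3-fold higher in the vascular cells than in the other cells and Hoxb8 2.9-fold, while Hoxb6 was at 0.691.

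**Figure D5:**
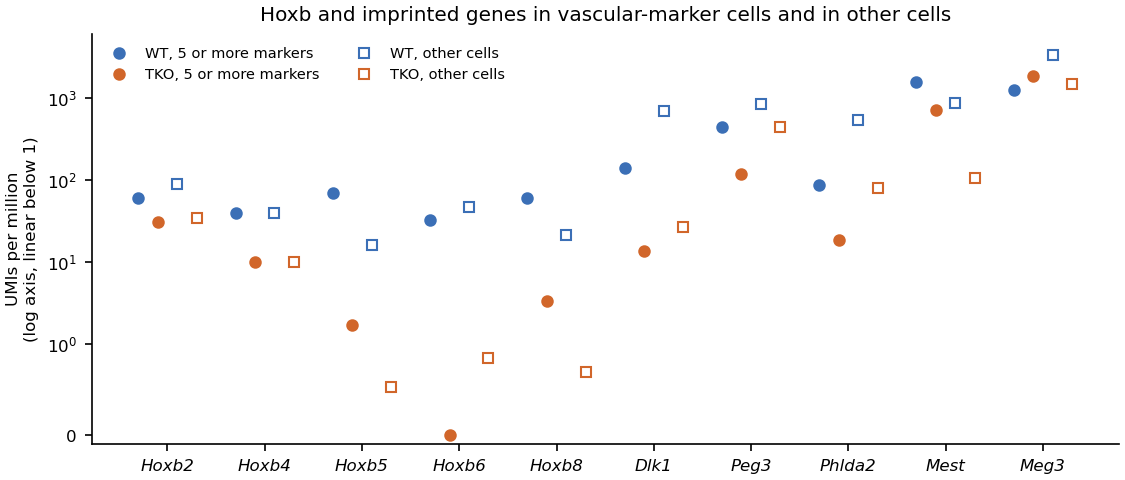
Summed CPM (y axis, linear near 0 and log above) for 5 Hoxb genes and 5 imprinted genes in cells with 5 or more markers and in cells outside the selection, by library. Hoxb5 is at 69.6 in WT vascular cells and 1.68 in TKO, and Mest at 1547 and 715.

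Several imprinted genes, which are transcribed from one parental copy under the control of DNA methylation, were lower in TKO. Dlk1, a Notch-related growth regulator, stood at 140 CPM in WT and 13.4 in TKO, a ratio of 0.0961 (0.041 to 0.193), against 0.0395 in cells outside the selection. Peg3, a zinc finger protein, stood at 443 and 118 CPM, a ratio of 0.265 (0.204 to 0.34), against 0.518 outside. Mest, a hydrolase-like protein of mesoderm, stood at 1547 and 715 CPM, a ratio of 0.462 (0.416 to 0.513), against 0.122 outside. TKO vascular cells held 6.87-fold more Mest than the other TKO cells, and WT vascular cells 1.82-fold more than the other WT cells. Phlda2, a growth-restraining gene of placenta, stood at 86.8 and 18.5 CPM, a ratio of 0.213 (0.104 to 0.393). Meg3, the non-coding RNA of the Dlk1 cluster, was higher in the TKO vascular cells, at 1221 and 1852 CPM, a ratio of 1.52 (1.41 to 1.63), but lower in TKO over all selected cells, at 0.809, and outside the selection, at 0.45. Cdkn1c, a cell cycle inhibitor, had a ratio of 1.35 (1.14 to 1.6), of 1.07 (0.879 to 1.31) in cells with 5 to 7 markers, 0.615 over all selected cells and 0.333 outside. Of 18 genes with 50 UMIs, 5 were 2-fold higher in WT, none in TKO, and the median log2 ratio was -0.44.

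The Tet transcripts themselves were still counted in TKO vascular cells. Tet1 had 22 UMIs in WT and 12 in TKO, Tet2 25 and 4, and Tet3 43 and 19. The labels do not give the deleted parts, so these counts check nothing about the knockout. Dnmt3b, a methyltransferase that sets new DNA methylation, had 40 and 25 UMIs, a ratio of 1.64 (0.956 to 2.78), and a ratio of 3.55 over all selected cells. Outside the selection its ratio was 8.12.

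Cell cycle and energy genes showed no 2-fold difference in cells with 5 or more markers. Among 21 cell cycle genes with 50 UMIs the median log2 ratio was -0.16, and Mki67, a proliferation marker, stood at 59.4 and 63.8 CPM. Among 14 glycolysis and hypoxia genes the median was 0.10, with Gapdh at 441 and 426 CPM and Pdk1, a brake on pyruvate oxidation, at 75.3 and 119 CPM.

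The genes furthest apart in either direction included genes best known from other cell types. Among those highest in TKO, Ebf1, a transcription factor of B cells and mesenchyme, had 42 UMIs in WT and 81 in TKO, a ratio of 5.07 (3.45 to 7.55), with 8.8 in cells outside the selection. Alpl, tissue-nonspecific alkaline phosphatase, stood at 20.4 and 116 CPM, a ratio of 5.67 (3.68 to 8.91), with a ratio of 1.05 in cells outside the selection. Ptp4a3, a phosphatase, stood at 86.8 and 379 CPM, a ratio of 4.37 (3.52 to 5.45), against 0.573 outside. Clec1b, a C-type lectin-like receptor of platelets, stood at 30 and 113 CPM, a ratio of 3.75 (2.54 to 5.57). Trp53i11 (15.3 and 141 CPM) and Emb, an adhesion protein (26.2 and 220 CPM), had ratios of 9.2 and 8.4, close to the 7.76 and 9.51 outside the selection. Among those highest in WT, Fxyd2, a sodium pump regulator, had 352 UMIs in WT and 1 in TKO, the WT UMIs lying in 19.9% of cells. Gap43, a growth cone protein, had 266 UMIs in 55.2% of WT cells and 1 in TKO, a ratio of 0.00989 (0.000249 to 0.0556), against 0.114 outside.

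The extremes over all selected cells were of another kind. Acta2, smooth muscle actin, was the lowest in TKO, with 1656 UMIs in WT and 3 in TKO, a ratio of 0.00395 (0.000813 to 0.0116). In WT cells with 5 or more markers it had 206 UMIs in 24.3% of cells, and its level there was 0.167 of that in other WT cells. The pluripotency factor Pou5f1 was 14.6-fold higher in TKO over all selected cells but had only 3 and 6 UMIs in cells with 5 or more markers, and the hormone precursor Trh, the highest in TKO over all selected cells at 85 UMIs against none, had 10 and none there. Of the 91 named genes, 17 were 2-fold higher in TKO, 40 in WT and 34 neither over all selected cells. Many of them were named because of their ratios, so these counts reflect the choice. Over all 7532 genes with enough UMIs the shares were 3.13% and 6.2%.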

How the data were processed

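For each library the authors deposited 1 table of raw UMI counts, with genes in rows and cells in columns. The submitters' processing notes name Seurat 3 and the build mm10 without giving their roles, and the aligner and any cell filter were not given in the sources used here. Genes were matched between the libraries by row position, since 116 of 27998 row names differed, and cells by column position, since the TKO header held 3224 names for 3223 cells. Every column of counts was matched to a sample.

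UMIs were summed over the cells of a set and divided by the set's total to give CPM. Ratios carry exact 95% intervals from the binomial share of the counts, and shares carry Clopper-Pearson intervals. A gene at 0 was set to a floor of 3 counts over the cells of the set, and its ratio is a bound. A gene was counted as apart at a 2-fold ratio and 50 UMIs over both libraries. The free-RNA comparison used cells with at least 3 of 6 epithelial genes and under 3 of the selecting genes. With 1 library per group no test was possible.

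Named genes were the 12 highest and 12 lowest ratios that reached 50 CPM in 1 of the libraries, the 12 highest against other cells, and members of the lists of pathway and vessel genes. From the remaining lists came up to 3 genes at either end with at least 20 UMIs. The same choice for cells with 5 or more markers was added after the data were seen, and Bmpr1a and Smad5 are named as members of a count of 5 or fewer. The selection and the gene lists were chosen with earlier results of these data known. No doublet caller was run, and the selected cells were recounted without the deepest 10%. The scripts were tested on simulated data. Promoter sequences came from RefSeq, with windows for 16 of 24 transcription factor genes and 11 of 24 junction genes. Python 3.11.15, numpy 2.4.6, scipy 1.17.1 and matplotlib 3.10.9 were used.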

Additional observations from a re-analysis of the deposited data

How the results depend on the processing

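The share of selected cells followed the number of markers asked for. It was 23.6% in WT and 17.5% in TKO with 2 or more markers, 4.64% and 1.6% with 4 or more, 4.12% and 1.35% with 5 or more, and 4.78% and 2.16% after thinning to 4000 UMIs. The WT share over the TKO share was 2.08, and 1.35 with 2 or more markers, 2.91 with 4 or more and 3.06 with 5 or more.

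The counts of genes 2-fold apart (236 higher in TKO and 467 in WT) moved most with the cells and the minimum of UMIs. They were 611 and 882 with 2 or more markers, 169 and 265 with 4 or more, 147 and 240 with 5 or more, 85 and 109 with 5 to 7 markers, 485 and 810 with at least 20 UMIs, and 100 and 277 with at least 100. They stayed within 1.5 times without a globin limit, with cells weighted equally, centred on the median gene, with the total stripped of mitochondrial, ribosomal protein and globin genes, and without the deepest 10% of cells. Genes higher in the selected cells than in other cells (550 in WT and 466 in TKO) numbered 266 and 161 with 2 or more markers, 852 and 995 with 4 or more, and 849 and 1199 with 5 or more. The cells with 5 or more markers and with 5 to 7 were chosen after the data were seen. Among the 91 named genes, none that was 2-fold apart over all selected cells changed direction under the alternatives run. Genes called only in cells with 5 or more markers were not part of that check. Podxl, 2-fold higher in TKO there, was lower in TKO over all selected cells. With 5 or more markers 10 genes lost a 2-fold difference and 4 gained one. With 5 to 7 markers 14 lost it, 5 gained it and 45 moved. The cause was not tested.

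No paired analysis was possible because each group was 1 library. With 43 TKO cells of 5 or more markers, a gene with no UMI could stand at up to 5.04 CPM.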
